A study of Homo sapiens with 6 samples.

Results

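The transcripts described here are those of 45 genes of DNA repair and of the DNA damage checkpoint, taken by gene symbol from a fixed list of 45. All 45 were among the 18780 genes listed, none was listed at 0 in any library, and all 45 were among the 12018 genes kept for testing because their mean was at least 1 TPM. TPM gives transcript levels corrected for the length of the transcript and for the size of the library, so levels of different genes can be set side by side. The RNA came from PC-3, an established human prostate cancer cell line that lacks functional p53. In 3 libraries the cells had received trans-Gnetin H (TGH), a resveratrol trimer, at 2.5 µM for 24 h, and in the other 3 the solvent dimethyl sulfoxide (DMSO), whose dose the labels do not give. All 6 libraries are of 1 cell line in the same serum-containing medium, at 1 dose and 1 time. No label says that the replicates were separate cultures, so the p-values measure the spread between these libraries, which may be technical.

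Cells repair broken DNA by several routes. Homologous recombination copies the lost sequence from the sister chromatid and is tied to S and G2 phase. The Fanconi pathway unhooks crosslinks between the strands and hands the break to recombination. End joining ligates broken ends at any stage of the cycle, mismatch repair corrects replication errors, and excision repair removes damaged bases or stretches of a strand. The checkpoint kinases ATM and ATR sense breaks and stalled forks and hold the cell cycle. Prostate tumours can carry inherited or acquired defects in recombination genes.

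The 6 libraries differed in how many genes they listed at exactly 0. The count was 3074 and 3185 in DMSO replicates 1 and 2, and between 1342 and 1530 in DMSO replicate 3 and the 3 TGH libraries. TPM keeps no read total, so depth is not known. Markers of immune and endothelial cells were near 0: the summed TPM of 5 immune markers was at most 0.43 and that of 4 endothelial markers at most 0.598. The 6 fibroblast markers summed to between 3.3 and 4.83 TPM. Most of that was COL1A1, with a mean of 3.39 TPM in DMSO and 2.75 TPM with TGH. The 5 epithelial markers summed to between 1815 and 1900 TPM in DMSO and between 1487 and 1503 TPM with TGH, and 3 of them were lower, among them KRT8 (-0.51) and KRT18 (-0.45). The part of this in the results below was not tested.

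Most repair and checkpoint transcripts that changed with TGH fell, and nearly all of them by little. Of the 45, 21 were lower, 8 were higher and 16 were not called (limma with Benjamini-Hochberg adjustment over all genes kept, a call being an adjusted p under 0.05). That makes 64.4% called, against 55.2% of all genes kept. For falls the share was 46.7%, against 26.3% of all genes kept, and for rises 17.8%, against 28.9%. The median difference between TGH and DMSO was -0.14 on the log2(TPM + 1) scale over the 45, and 0.02 over all genes kept. The DMSO and TGH libraries did not overlap in 32 of the 45, or 71.1%, against 64.4% of all genes kept. Only UBE2T differed by 0.5 or more on this scale, a size that 10.6% of all genes kept reached together with a call. The differences below are on the same scale, and its offset of 1 makes the change of low genes smaller than the change in TPM.

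**Figure D1:**
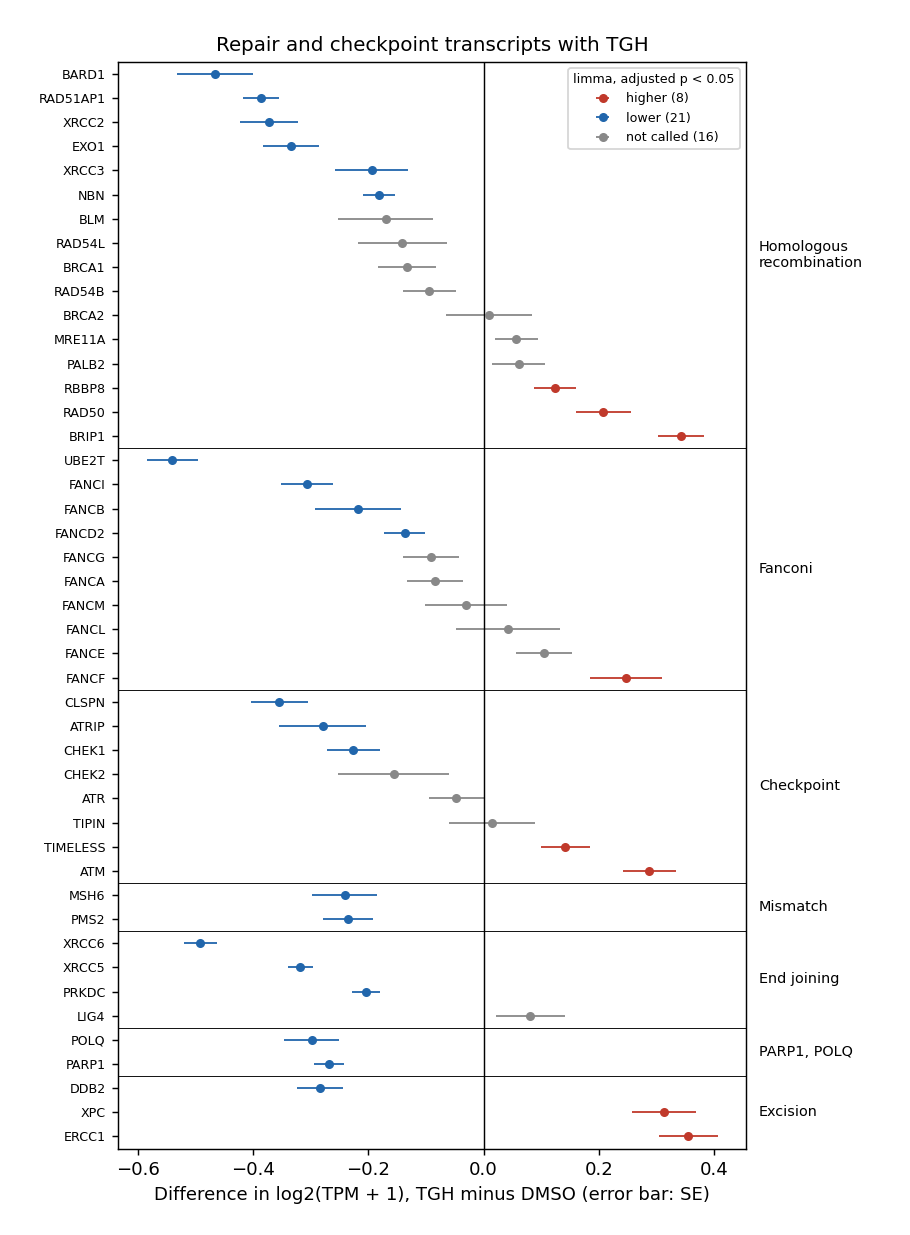
Difference in log2(TPM + 1) between TGH and DMSO (x axis) for each of the 45 transcripts (y axis), grouped by repair route, with the standard error of the fit as the bar and the colour giving the call. The 21 blue transcripts that were lower occur in every group, and the 8 red ones that were higher are in the recombination, Fanconi, checkpoint and excision groups.

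Falls were found in every route, in recombination and outside it. Homologous recombination and Fanconi genes had 10 lower, 4 higher and 12 uncalled of 26, with a median of -0.11. Their share of calls was 53.8%, near the 55.2% of all genes kept, and their share of falls was 38.5%, against 26.3%. End joining, mismatch and excision genes, counted together with PARP1 and POLQ, had 8 lower, 2 higher and 1 uncalled of 11, with a median of -0.24. Here 90.9% were called and 72.7% were lower. The mean log2(TPM + 1) of the 26 was 3.48, 3.49 and 3.49 in the DMSO libraries and 3.41, 3.37 and 3.38 in the TGH libraries. The mean log2(TPM + 1) of the 11 was 4.92, 4.93 and 4.91 in DMSO and 4.79, 4.74 and 4.78 with TGH. Both sets of genes lay lower in each TGH library than in any DMSO library. The 11 were also more abundant, with a median of 21.0 TPM over the 6 libraries, against 11.7 TPM for the 26. The difference between the sets was not tested.

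Levels overlapped between the genes that were lower, higher and uncalled. The 21 that were lower had a median of 14.5 TPM over the 6 libraries, with a range from 4.33 to 255 TPM. The 8 that were higher had a median of 8.2 TPM and ranged from 3.31 to 29.2 TPM, and the 16 uncalled ones had a median of 7.86 TPM and ranged from 1.65 to 20.6 TPM. The 5 most abundant members were XRCC6, XRCC5, PARP1, PRKDC and UBE2T, and all 5 were lower with TGH. The least abundant was BRCA2, with a mean of 1.65 TPM. An association between level and call was not tested.

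**Figure D2:**
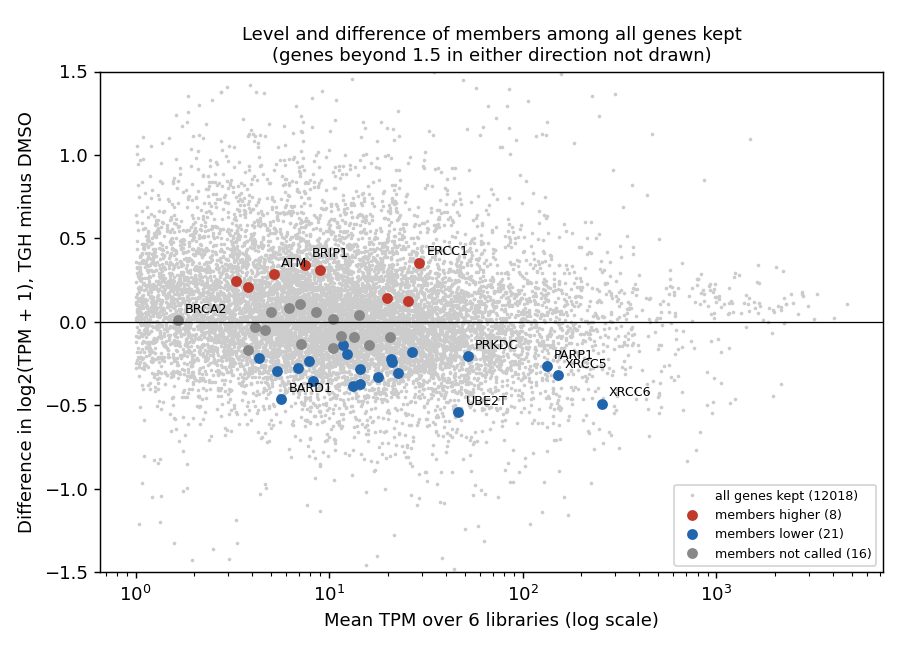
Mean TPM over the 6 libraries (x axis, log scale) and difference in log2(TPM + 1) between TGH and DMSO (y axis) for the 12018 genes kept (grey) and the 45 members (coloured by call). Genes whose difference lies beyond the range of the y axis are not drawn. The most abundant members, XRCC6, XRCC5, PARP1 and PRKDC, lie below 0, and the members that were higher lie at 29.2 TPM or less.

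The promoters of the 3 largest falls (UBE2T, XRCC6, BARD1) and the 2 largest rises (ERCC1, BRIP1) are shown, because transcripts of dividing cells often share E2F, CHR and CCAAT motifs near the start. Each sequence is the 250 bases before a RefSeq transcript start, in GRCh38.p14, 5′ to 3′ on the strand of the gene, and the capitals mark motif matches.
UBE2T, chr1:202341937-202342186, minus strand: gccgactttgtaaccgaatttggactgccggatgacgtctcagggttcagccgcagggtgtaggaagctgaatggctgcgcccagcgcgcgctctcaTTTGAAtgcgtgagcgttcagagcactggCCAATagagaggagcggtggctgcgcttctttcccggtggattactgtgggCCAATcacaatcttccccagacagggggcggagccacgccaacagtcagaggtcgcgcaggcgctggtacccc
XRCC6, chr22:41621045-41621294, plus strand: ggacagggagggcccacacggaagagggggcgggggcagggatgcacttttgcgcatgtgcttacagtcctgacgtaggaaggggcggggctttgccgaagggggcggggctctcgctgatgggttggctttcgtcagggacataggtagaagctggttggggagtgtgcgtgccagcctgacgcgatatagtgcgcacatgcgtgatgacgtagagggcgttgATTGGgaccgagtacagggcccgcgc
BARD1, chr2:214809684-214809933, minus strand: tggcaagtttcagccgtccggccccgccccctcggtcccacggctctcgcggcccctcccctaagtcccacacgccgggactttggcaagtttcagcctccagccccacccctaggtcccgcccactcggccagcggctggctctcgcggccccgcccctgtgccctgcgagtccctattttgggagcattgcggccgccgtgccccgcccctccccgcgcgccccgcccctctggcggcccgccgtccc
ERCC1, chr19:45423529-45423778, minus strand: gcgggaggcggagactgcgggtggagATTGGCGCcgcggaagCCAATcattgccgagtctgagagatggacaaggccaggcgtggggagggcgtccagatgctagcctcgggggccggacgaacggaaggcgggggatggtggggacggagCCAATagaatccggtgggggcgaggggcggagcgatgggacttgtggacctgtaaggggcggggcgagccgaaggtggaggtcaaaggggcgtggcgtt
BRIP1, chr17:61863529-61863778, minus strand: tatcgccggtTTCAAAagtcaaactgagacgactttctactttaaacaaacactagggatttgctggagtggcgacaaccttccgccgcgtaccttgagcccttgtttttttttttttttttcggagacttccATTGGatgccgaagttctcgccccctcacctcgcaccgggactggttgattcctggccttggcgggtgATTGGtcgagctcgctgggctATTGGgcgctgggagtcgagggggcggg
UBE2T, lower with TGH, held a CHR motif 147 bases before its start and CCAAT boxes at 119 and 68 bases. XRCC6, also lower, held 1 CCAAT box, read on the other strand, at 21 bases, and BARD1 held none of the 3 motifs. ERCC1, which was higher, held CCAAT boxes at 219, 203 and 94 bases, the first of them read on the other strand. It also held an E2F motif at 216 bases that overlaps this first box. Of the 3 ERCC1 starts in the table, the one shown matches the principal transcript of GENCODE. BRIP1, also higher, held a CHR motif at 234 bases and CCAAT boxes at 112, 44 and 23 bases, all read on the other strand. The starts shown for XRCC6 and BARD1 lie 55 and 21 bases from the principal ones. The place of the XRCC6 box relative to its principal start is therefore not given here.

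These motifs stood in front of genes that fell and of genes that rose. An E2F motif was read as TTCGCGC, with the variant TTGGCGC or the other variant, TTCCCGC. A CHR motif was TTTGAA or TTCGAA. The CCAAT box was CCAAT alone, and all were searched on both strands. RefSeq gave 60 start windows for 40 of the 45 genes, and windows of 1 gene can share bases. NBN, RAD54B, PRKDC, FANCI and XRCC5 had no entry. An E2F motif was present in 25.0% of member windows against 9.32% of the 35116 windows of all genes, and CCAAT in 53.3% against 32.0%. A CHR motif was present in 8.33% of member windows against 14.3%. By call, E2F motifs were in 6 of 26 windows of lower genes, 2 of 12 of higher genes and 7 of 22 of uncalled genes. CCAAT was in 14, 6 and 12 of these, and a CHR motif in 2, 3 and 0. These splits were not tested. A match describes the letters and is no evidence of binding.

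Among the genes of homologous recombination, 6 of 16 were lower, 3 were higher and 7 were not called, with a median of -0.14. Calls made up 56.2% of them, near the 55.2% of all genes kept. The BRCA1 complex ubiquitinates chromatin at breaks and helps load the strand-exchange protein. BRCA1 itself was at 7.26, 7.63 and 7.61 TPM in DMSO replicates 1 to 3 and at 7.06, 6.32 and 6.89 TPM with TGH. The groups did not overlap, but the difference of -0.13 (SE 0.050) was not called (adjusted p = 0.0604). It was called under median centring (-0.17, adjusted p = 0.0249) and quantile normalization (-0.21, adjusted p = 0.011). BARD1, the binding partner of BRCA1, was at 7.23, 6.03 and 6.92 TPM in DMSO and 4.46, 4.68 and 4.61 TPM with TGH. It fell by 0.47 (SE 0.066, adjusted p = 0.00122), the largest fall in this group.

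BRIP1, a helicase that binds BRCA1, went the other way from BARD1. Its level was 6.53, 6.35 and 6.48 TPM in DMSO and 8.77, 8.21 and 8.38 TPM with TGH, a rise of 0.34 (SE 0.040, adjusted p = 5.2e-04). PALB2, which bridges BRCA1 and BRCA2, had a mean of 4.87 ± 0.185 TPM in DMSO and 5.12 ± 0.126 TPM with TGH (SD, n = 3 each). This difference was not called (0.06, adjusted p = 0.292). BRCA2, which loads the strand-exchange protein onto DNA, was at 1.63, 1.66 and 1.63 TPM in DMSO and 1.80, 1.44 and 1.75 TPM with TGH. The TGH values lay on both sides of the DMSO values (0.01, SE 0.075, adjusted p = 0.924).

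Several factors of strand exchange, and a nuclease of resection, fell. RAD51AP1, which stimulates strand exchange, was at 15.2, 15.4 and 15.0 TPM in DMSO and 11.6, 11.3 and 11.3 TPM with TGH. It fell by 0.39 (SE 0.031, adjusted p = 1.0e-04). XRCC2, a paralog of the strand-exchange protein, was at 17.1, 15.2 and 16.8 TPM in DMSO and 12.3, 12.8 and 12.1 TPM with TGH, and fell by 0.37 (adjusted p = 9.7e-04). XRCC3, another such paralog, had a difference of -0.19 whose call rested on every library but 1, as described below. EXO1, a nuclease that widens resected ends, was at 19.8, 21.5 and 19.1 TPM in DMSO and 16.1, 15.4 and 15.7 TPM with TGH. It fell by 0.33 (SE 0.048, adjusted p = 0.00129), with no overlap between the groups.

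The motor proteins RAD54L and RAD54B and the helicase BLM had differences of -0.14, -0.09 and -0.17 that were not called (adjusted p = 0.162, 0.127 and 0.121). RAD54L rested on the choice of control. Without DMSO replicate 3 it was called at -0.23 (adjusted p = 0.0101), and against DMSO replicate 3 alone it had 0.03. A comparison with 1 control library takes its spread from the 3 TGH libraries and assumes that the control varies like them. BLM was called without DMSO replicate 1 (-0.24, adjusted p = 0.0243) and under quantile normalization (-0.27, adjusted p = 0.0198). Against DMSO replicate 3 alone BLM had -0.27. RAD54B was called under median centring (-0.13, adjusted p = 0.0478).

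The MRN complex, which tethers broken ends and activates ATM, had 1 subunit called in each direction. RAD50, its long coiled-coil subunit, had a mean of 3.47 ± 0.133 TPM in DMSO and 4.16 ± 0.0788 TPM with TGH (SD, n = 3 each), a rise of 0.21 (adjusted p = 0.00973). This call was lost under quantile normalization (0.10, adjusted p = 0.125). NBN, the subunit that binds ATM, was at 29.0, 27.9 and 28.3 TPM in DMSO and 24.9, 25.1 and 24.8 TPM with TGH, and fell by 0.18 (SE 0.028, adjusted p = 0.00172). MRE11A, the nuclease, was not called (0.06, adjusted p = 0.244). RBBP8, which encodes CtIP and starts resection with this complex, rose by 0.12 (adjusted p = 0.0284), a call that 6 alternatives lost.

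In the Fanconi group 4 of 10 genes fell and 1 rose, and 5 did not pass the test (median -0.087). That makes 50.0% called, against 55.2% of all genes kept. The pathway turns on the attachment of ubiquitin to the FANCD2 and FANCI pair by the ligase FANCL and its conjugating enzyme UBE2T. UBE2T was at 55.2, 55.5 and 55.1 TPM in DMSO and 40.3, 36.9 and 36.0 TPM with TGH. It fell by 0.54 (SE 0.044, adjusted p = 1.1e-04), the largest fall among the 45. FANCL was at 14.8, 11.9 and 15.3 TPM in DMSO and 14.8, 14.6 and 13.8 TPM with TGH, which overlap (0.04, adjusted p = 0.717).

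FANCI was at 25.2, 25.4 and 24.4 TPM in DMSO and 20.7, 18.8 and 20.7 TPM with TGH. It fell by 0.31 (SE 0.045, adjusted p = 0.00145). FANCD2 was at 12.1, 12.5 and 12.6 TPM in DMSO and 11.4, 10.9 and 11.3 TPM with TGH, and fell by 0.14 (SE 0.035, adjusted p = 0.0151). The groups did not overlap for either gene of the pair. Without TGH replicate 2 the FANCD2 difference was -0.12 and not called (adjusted p = 0.0594).

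The core complex, which carries FANCL to the damage, had 1 member called in each direction. FANCA, FANCG and FANCE had differences of -0.08, -0.09 and 0.10, and FANCM, a translocase that anchors the complex, had -0.03; none of these 4 was called (adjusted p from 0.111 to 0.745). FANCF, an adaptor of the complex, had a mean of 2.94 ± 0.205 TPM in DMSO and 3.68 ± 0.184 TPM with TGH (SD, n = 3 each) and rose by 0.25 (adjusted p = 0.0138). FANCB fell by 0.22 (adjusted p = 0.0449), with overlapping groups.

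Of the 8 checkpoint genes 3 were lower, 2 were higher and 3 were not called, with a median of -0.10. Their share of calls was 62.5%, against 55.2% of all genes kept. CHEK1 encodes the kinase that ATR activates at stalled forks. It was at 21.6, 24.1 and 22.0 TPM in DMSO and 18.9, 18.9 and 19.6 TPM with TGH, and fell by 0.23 (SE 0.046, adjusted p = 0.00566). CLSPN, the adaptor that brings CHEK1 to ATR, had a mean of 9.35 ± 0.431 TPM in DMSO and 7.10 ± 0.316 TPM with TGH (SD, n = 3 each), and fell by 0.35 (adjusted p = 0.00113). ATRIP, the partner that recruits ATR, fell by 0.28 (adjusted p = 0.0186).

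ATR itself was at 4.73, 5.0 and 4.58 TPM in DMSO and 4.56, 4.71 and 4.48 TPM with TGH, with overlapping groups (-0.05, SE 0.048, adjusted p = 0.433). ATM, the kinase that responds to breaks, was at 4.33, 4.70 and 4.70 TPM in DMSO and 5.79, 5.81 and 5.79 TPM with TGH. It rose by 0.29 (SE 0.046, adjusted p = 0.00199), and all TGH values lay above all DMSO values. CHEK2, the kinase below ATM, was at 9.43, 12.1 and 11.6 TPM in DMSO and 10.2, 10.2 and 8.95 TPM with TGH. It was not called (-0.16, SE 0.096, adjusted p = 0.208), but it was without DMSO replicate 1, its lowest control (-0.26, adjusted p = 0.0179).

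TIMELESS and TIPIN form a pair that steadies the replication fork and aids CHEK1 activation. TIMELESS had a mean of 18.9 ± 1.01 TPM in DMSO and 20.9 ± 0.176 TPM with TGH (SD, n = 3 each), a rise of 0.14 (adjusted p = 0.0271) that 6 alternatives lost. TIPIN had 10.4 ± 0.622 and 10.6 ± 1.06 TPM and was not called (0.01, adjusted p = 0.881).

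**Figure D3:**
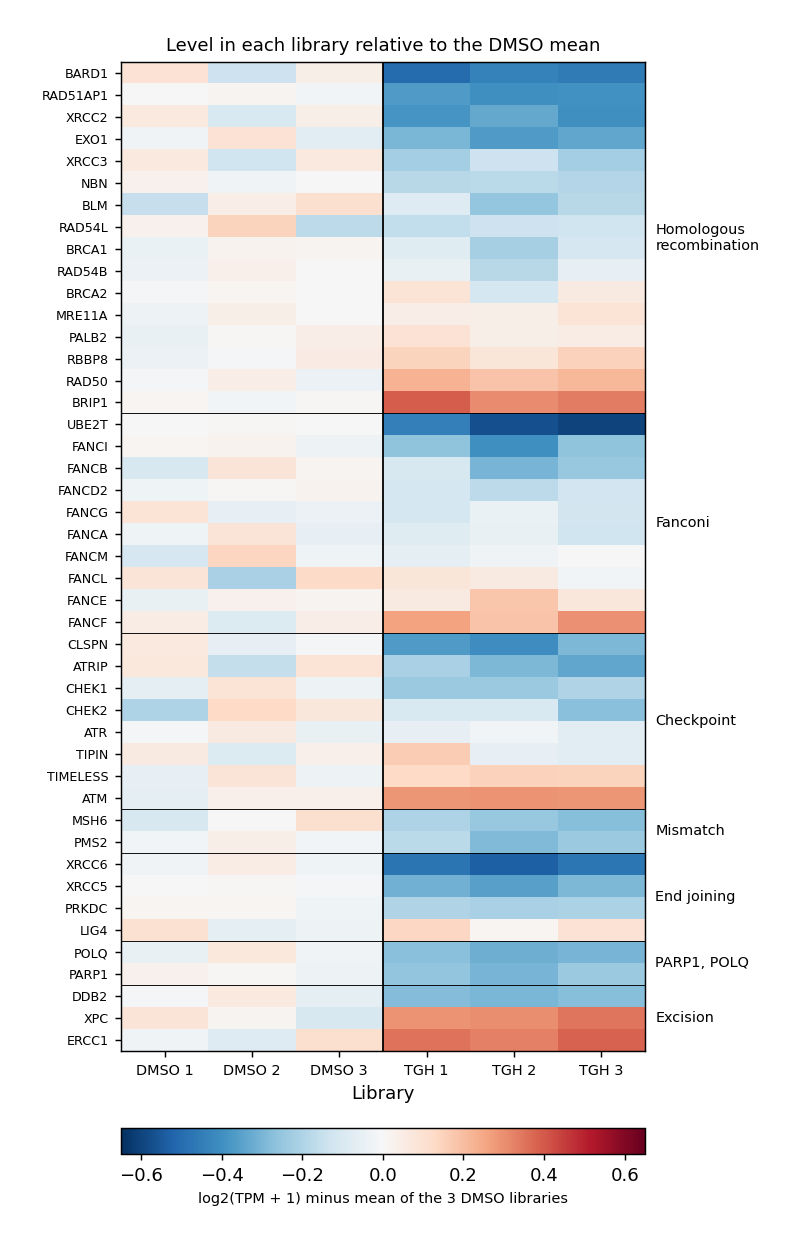
Level of each of the 45 transcripts (rows, grouped by route) in each of the 6 libraries (columns), as log2(TPM + 1) minus the mean of the 3 DMSO libraries, with blue for lower and red for higher. The 3 TGH libraries show like colours for most called genes, as for XRCC6, XRCC5, ATM and ERCC1, while uncalled genes such as RAD54L, FANCL and CHEK2 vary among the DMSO libraries.

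Among the end joining genes, 3 of 4 were lower, against 26.3% of all genes kept. Of the other end joining genes described below, 25.0% were lower. The Ku pair of XRCC6 (Ku70) and XRCC5 (Ku80) caps broken ends and recruits the kinase encoded by PRKDC. XRCC6 was at 294, 309 and 293 TPM in DMSO and 214, 206 and 216 TPM with TGH. It fell by 0.49 (SE 0.029, adjusted p = 2.8e-05), which is 1.41-fold on this scale. XRCC5 was at 168, 169 and 167 TPM in DMSO and 135, 132 and 138 TPM with TGH, and fell by 0.32 (SE 0.022, adjusted p = 5.9e-05). These are the most abundant transcripts of the 45, and in both the groups lay far apart relative to their spread.

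PRKDC was at 56.3, 56.4 and 54.8 TPM in DMSO and 48.7, 48.1 and 48.2 TPM with TGH, and fell by 0.20 (SE 0.024, adjusted p = 5.0e-04). LIG4, the ligase that seals the joined ends, was at 6.46, 5.67 and 5.81 TPM in DMSO and 6.65, 6.04 and 6.46 TPM with TGH. Its groups overlapped and it was not called (0.08, SE 0.060, adjusted p = 0.283).

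PARP1, which senses strand breaks and marks them with ADP-ribose, was at 148.2, 146.0 and 141.9 TPM in DMSO and 121, 118 and 123 TPM with TGH. It fell by 0.27 (SE 0.026, adjusted p = 2.4e-04). POLQ, the polymerase of an end joining route that uses short homologies, was at 5.81, 6.39 and 5.93 TPM in DMSO and 4.83, 4.64 and 4.70 TPM with TGH, and fell by 0.30 (SE 0.048, adjusted p = 0.0021). Both were lower in each TGH library than in any control.

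Both mismatch genes were lower. MSH6, which recognises mispaired bases, was at 21.2, 22.9 and 24.6 TPM in DMSO and 19.8, 19.1 and 18.7 TPM with TGH, and fell by 0.24 (SE 0.056, adjusted p = 0.0105). PMS2, part of the nuclease that cuts the new strand, was at 8.49, 8.85 and 8.51 TPM in DMSO and 7.52, 6.87 and 7.13 TPM with TGH. It fell by 0.23 (SE 0.044, adjusted p = 0.00433), a value that is uncertain because pseudogene copies of PMS2, such as PMS2P1 with a mean of 10.2 TPM, are listed as rows of their own and can share its reads.

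The 3 genes of nucleotide excision repair split. XPC, which finds distorted DNA, was at 8.41, 7.98 and 7.26 TPM in DMSO and 9.85, 9.92 and 10.3 TPM with TGH, and rose by 0.31 (SE 0.055, adjusted p = 0.00323). ERCC1, a subunit of the nuclease that cuts on the 5′ side of the damage, was at 25.1, 24.0 and 27.5 TPM in DMSO and 32.9, 32.2 and 33.6 TPM with TGH. It rose by 0.36 (SE 0.051, adjusted p = 0.00126), the largest rise among the 45. DDB2, which finds ultraviolet damage in chromatin, was at 15.9, 16.8 and 15.3 TPM in DMSO and 13.0, 12.8 and 13.1 TPM with TGH, and fell by 0.28 (SE 0.040, adjusted p = 0.00113). DDB2 and XPC are both known as p53 targets, and in this p53-deficient line they were called in opposite directions.

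Several members work as partners of a complex, and the ratio of the partners' TPM within a library was compared for 7 such pairs, chosen with the results known. The ratio of BARD1 to BRCA1 was 0.996, 0.79 and 0.909 in DMSO and 0.631, 0.741 and 0.669 with TGH. RAD50 to NBN was 0.119, 0.129 and 0.118 in DMSO and 0.169, 0.162 and 0.169 with TGH. XRCC6 to XRCC5 was 1.75, 1.82 and 1.75 in DMSO and 1.59, 1.57 and 1.57 with TGH. In these 3 pairs the ratios of the DMSO and TGH libraries did not overlap, which largely restates the values given above for each gene.

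The ratios did not overlap either for FANCI to FANCD2, with a difference of -0.17 in the log2 ratio, and for RAD50 to MRE11A, with 0.20. ATRIP to ATR (-0.26) and TIMELESS to TIPIN (0.13) had overlapping groups. The 5 pairs without overlap had p = 0.1 in a two-sided exact permutation test and an adjusted p of 0.14 over the 7 pairs. That is the smallest p that 3 libraries against 3 can give, so none could pass 0.05 and the ratios are a description.

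**Figure D4:**
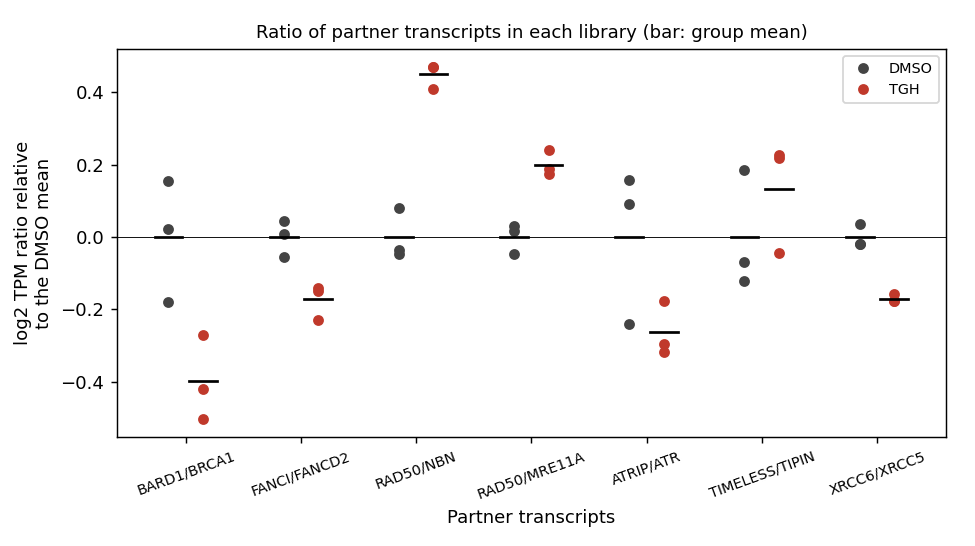
Log2 ratio of the TPM of partner transcripts in each library, relative to the mean of the DMSO libraries (y axis), for 7 pairs (x axis), with DMSO in grey, TGH in red and group means as bars. BARD1/BRCA1, FANCI/FANCD2 and XRCC6/XRCC5 lie lower in all TGH libraries and RAD50/NBN and RAD50/MRE11A higher, while ATRIP/ATR and TIMELESS/TIPIN overlap.

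Some calls were sensitive to single libraries or to the scaling. Of the 29 called members, 21 (17 lower and 4 higher) kept their call in each of the 17 alternatives that gave a value, and none changed sign. The 4 were BRIP1, ATM, XPC and ERCC1. XRCC3 lost its call without any 1 library except DMSO replicate 2, with differences from -0.22 to -0.16 and adjusted p from 0.0516 to 0.108. TIMELESS lost it without any 1 library except DMSO replicate 2, with 0.12 to 0.15 and adjusted p from 0.0601 to 0.0824. RBBP8 lost it without DMSO replicate 1 or 2 or TGH replicate 1 or 3, with 0.10 to 0.12 and adjusted p from 0.0628 to 0.099. FANCB lost it without DMSO replicate 2 or 3 or TGH replicate 2 or 3, with -0.21 to -0.18 and adjusted p from 0.106 to 0.138. ATRIP lost it without DMSO replicate 3 (-0.24, adjusted p = 0.0581), TGH replicate 2 (-0.27, 0.0593) or TGH replicate 3 (-0.25, 0.0677). FANCF lost it without TGH replicate 3 (0.22, adjusted p = 0.0573), under quantile normalization (0.14, adjusted p = 0.106) and against DMSO replicate 3 alone (0.20, adjusted p = 0.0699). RBBP8 also lost it under median centring (0.09, adjusted p = 0.0695) and against DMSO replicate 3 alone (0.07, adjusted p = 0.246). Against DMSO replicate 3 alone, where only the TGH libraries give the spread, 21 of the 45 were lower and 6 were higher.

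Other genes of the same routes, 127 in 7 lists that exclude the 45, also had falls and rises, in shares that differed by route. Of 124 kept, 54 were lower and 22 higher (61.3% called, against 55.2% of all genes kept), with a median of -0.08. Against DMSO replicate 3 alone 35 were lower and 22 higher. The largest share of calls, 88.2%, was in the checkpoint list, with 12 lower and 3 higher of 17 and a median of -0.20. CDC25B and CDC25A, phosphatases that drive the cell cycle and are restrained by the checkpoint, fell by 0.62 and 0.54 (adjusted p = 1.6e-05 and 7.9e-05). HUS1, part of the clamp that helps activate ATR, rose by 0.52 (adjusted p = 1.2e-04).

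The other base excision genes had 14 lower and 3 higher of 21, with a median of -0.16. Here 81.0% were called, against 55.2% of all genes kept. FEN1, a flap nuclease that also acts in replication, fell by 0.51 and UNG, which removes uracil, by 0.48 (adjusted p = 2.1e-05 and 3.6e-04). MPG, a glycosylase of alkylated bases, rose by 0.34 (adjusted p = 0.00107).

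The other recombination genes had 12 lower and 8 higher of 33, with a median of -0.03. Calls made up 60.6% of them, near the 55.2% of all genes kept. RFWD3, a ubiquitin ligase, fell by 0.66 (adjusted p = 2.0e-05) and DNA2, a resection nuclease, by 0.33 (adjusted p = 5.2e-04), while MUS81, a nuclease of branched DNA, rose by 0.46 (adjusted p = 1.1e-04). The other Fanconi genes had 6 lower and 1 higher of 14 (50.0% called) and a median of -0.07. FAN1, a nuclease, rose by 0.36 (adjusted p = 0.00222). WDR48, a cofactor of deubiquitination, and DCLRE1B, a nuclease, fell by 0.27 and 0.28 (adjusted p = 0.00306 and 0.00353).

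The remaining lists had a smaller share of calls than all genes kept. Nucleotide excision had 6 lower and 4 higher of 22, and ERCC2, a helicase of the factor TFIIH, rose from 25.0 ± 1.22 to 48.2 ± 1.60 TPM (SD, n = 3 each), by 0.92 (adjusted p = 1.3e-05). GTF2H5, another part of TFIIH, rose by 0.37 (adjusted p = 6.9e-04). End joining had 3 lower and 2 higher of 12. C20orf196, which protects ends from resection, rose by 0.63 (adjusted p = 0.00718), while APTX, which clears stalled ligation, fell by 0.22 (adjusted p = 9.2e-04). Mismatch repair had 1 lower and 1 higher of 5. MLH3, which like PMS2 acts as a nuclease subunit, rose by 0.25 (adjusted p = 0.0114). PMS1 had 0.13 and was not called (adjusted p = 0.0696).

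**Figure D5:**
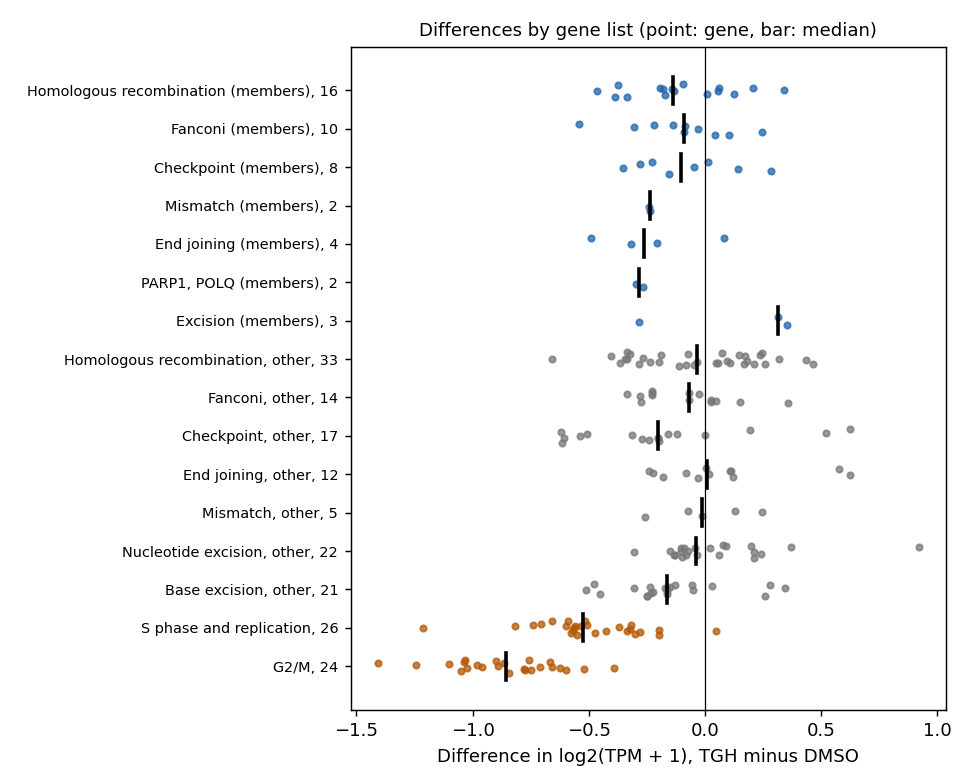
Difference in log2(TPM + 1) between TGH and DMSO (x axis) for the genes kept of each list (y axis, with their number), 1 point per gene and the median as a bar. The 45 members (blue) and the other repair genes (grey) scatter around medians between -0.28 and 0.31, while S phase (orange, -0.52) and G2/M genes (orange, -0.86) lie lower.

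Transcripts of dividing cells had larger falls, and the difference from the repair genes was not tested. Of 26 S phase and replication genes 25 were lower and 0 higher (median -0.52), and of 24 G2/M genes all 24 were lower (median -0.86). These shares of falls were 96.2% and 100%, against 26.3% of all genes kept. RRM2, a subunit of the enzyme that makes deoxynucleotides, and MCM7, a part of the replicative helicase, fell by 1.22 and 0.82 (adjusted p = 7.6e-07 and 1.4e-06). The mitotic kinase PLK1 and the topoisomerase TOP2A fell by 1.25 and 0.98 (adjusted p = 6.3e-07 and 1.1e-06). Whether fewer cells were in S and G2 phase or each cell held less of these RNAs cannot be told apart in bulk RNA, and the part of this in the fall of repair transcripts was not tested. On a median of -0.14 the 45 members stood between these lists and the median of all genes kept.

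Some members share their locus with another transcribed gene. Per the labels' protocols the libraries kept the strand, but the files do not say whether reads were counted by strand. In the GENCODE annotation 16 of the 45 overlap a gene that was also kept, 13 of them on the opposite strand and 3 on the same strand. In 6 called members the neighbour was called in the direction opposite to the member. CHEK1 overlaps STT3A on the same strand, which is at 139 TPM and had a difference of 0.39, against -0.23 for CHEK1. ATRIP overlaps TREX1 on the same strand, with 0.44 against -0.28 for ATRIP. The other 4 lie on the opposite strand. XPC overlaps LSM3, which is at 197 TPM and had -0.18, against 0.31 for XPC. ERCC1 overlaps CD3EAP, with -0.34 against 0.36. NBN overlaps DECR1, which is at 84.2 TPM and had 0.15, against -0.18 for NBN, and XRCC3 overlaps KLC1, with 0.22 against -0.19. Reads shared between neighbours would leave the values of these members uncertain. For neighbours on the opposite strand this applies mainly if the strand was ignored in counting. The uncalled BRCA1 and RAD54L also have a called neighbour that went the other way, NBR2 (0.55) and LRRC41 (0.28).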

How the data were processed

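Transcripts of PC-3 cells were measured by RNA sequencing in 3 DMSO and 3 TGH libraries. Per the labels' protocols, strand-keeping libraries were made after removal of ribosomal RNA. The authors deposited log2(TPM + 1) values per gene symbol, with hg19 as the genome build per the submitters' processing notes. No aligner, quantifier or annotation is given in the sources used here. That 1 had been added follows from a smallest value of 0. Genes whose mean reached 1 TPM were kept (12018), and groups were compared with limma 3.58.1 in R 4.3.3 (two-sided, variance trend, Benjamini-Hochberg adjustment over all genes kept, call at an adjusted p under 0.05). The step was also run on simulated data with independent noise and far fewer changed genes than were called here. The outcome of that run is not reported here. Partner ratios used scipy 1.17.1 and figures matplotlib 3.10.9. Promoters came from RefSeq (GRCh38.p14), which is not the build of the files, and no other coordinates are given; MRE11A was matched by its current symbol MRE11.

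The members, lists and tests were chosen with earlier results of these data known. Values in every library were to be given for called members of at least 0.5, for ATM, ATR, CHEK1, CHEK2, BRCA1, BRCA2 and FANCD2, and for end joining, mismatch and excision members. Those of other members were added after their values were seen. Up to 3 genes with the smallest p were named from each other repair list and 2 from the S phase and G2/M lists; some of these are not reported here. Alternatives were other pseudocounts (0.1, 5), filters, scalings, variance models, a replicate block, exact zeros as missing, leaving out each library, and DMSO replicate 3 as the only control.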

Additional observations from a re-analysis of the deposited data

How the results depend on the processing

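Of the genes kept, 3479 were higher and 3156 lower with TGH; leaving out 1 library gave 2858 to 3535 and 2557 to 3175. The members had 5 to 7 higher and 17 to 22 lower, with medians from -0.16 to -0.12. Recombination and Fanconi members had 2 to 4 higher and 7 to 10 lower (medians -0.13 to -0.10), checkpoint members 1 to 2 higher and 2 to 4 lower (-0.15 to -0.061), end joining, mismatch and excision members 2 higher and 8 lower throughout (-0.27 to -0.23), and other repair genes 18 to 24 higher and 44 to 56 lower. The median of all members was -0.10 at a pseudocount of 5, -0.18 at a minimum of 5 TPM, where 37 of the 45 remained, and -0.17 under median centring. For recombination and Fanconi members it was -0.084, -0.14 and -0.15 under these settings, -0.15 under quantile normalization and -0.09 against DMSO replicate 3 alone, and 2 were higher at 5 TPM, under quantile normalization and against that control. For checkpoint members it was -0.16 at 5 TPM and -0.16 under quantile normalization, and 1 was higher under median centring. Against DMSO replicate 3 alone 35 other repair genes were lower. The causes of these shifts were not tested.

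Uncalled members changed sign without being called. Under median centring BRCA2 had -0.023 and TIPIN -0.018. Under quantile normalization BRCA2 had -0.13, PALB2 -0.026, TIPIN -0.02 and LIG4 -0.007. Against DMSO replicate 3 alone RAD54L had 0.031, FANCL -0.084 and TIPIN -0.016. When 1 library was left out BRCA2 ranged from -0.029 to 0.071, TIPIN from -0.06 to 0.055, FANCL from -0.064 to 0.104 and FANCM from -0.085 to 0.039.

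With the replicate number as a block 19 members were lower and 8 higher, with 8 lower and 4 higher among recombination and Fanconi members; XRCC3 (adjusted p = 0.0724) and FANCB (0.099) lost their calls. Over the genes kept 3273 were higher and 2958 lower. Deviations from the group means of same-numbered libraries correlated at 0.00877, 0.0544 and 0.229 across genes, and those of differently numbered ones at -0.158 to 0.0957. Not every library correlated best with its own number, but the highest value was that of replicate 3 in both groups. These values are not independent, because deviations are taken from each group's own mean. They cannot show whether the numbers pair cultures. Depth is not known from TPM, which limits what can be said of low transcripts such as BRCA2.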
